A study of Sus scrofa with 2 samples.

Results

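Among the epithelial cells of the pig endometrium taken from a sow with embryo loss (EL), one group was set apart by JPH4 and JAKMIP1. These JPH4 cells numbered 2487 of the 10797 barcodes kept from that library, a share of 23.0% (95% exact binomial interval 22.2% to 23.8%, which covers counting error only, as all intervals given here do). A kept barcode had at least 500 unique molecular identifiers (UMIs, each the tag of 1 captured transcript) and at least 300 genes. A JPH4 cell was then one with at least 2 UMIs of JPH4 and at most 1 UMI of CYP26A1. It also had at least 1 UMI of JAKMIP1, COL23A1 or RFX6, counted together. Its UMIs of JPH4 and JAKMIP1 together were also no fewer than those of PON3 and CLDN10 and more than those of OPTC, CCK and TMEM100. The cells were thus chosen by the measured values of 10 genes, so the levels of those genes, and of any gene that varies with them, are given as a description and carry no test.

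Single cells of endometrium from both uterine horns were captured with droplet chemistry from 2 sows of the Yorkshire breed, both 3 years old. In the EL sow, the one with embryo loss, there had been an earlier abortion and 3 inseminations in a row that failed, and the day of its cycle or gestation at sampling is not stated. The EIS sow was inseminated with success and sampled at day 30 of gestation. Each condition is 1 sow and 1 library, so no p-value can be given between them, and effects of the animal, its pregnancy, the stage and the library preparation cannot be told apart.

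The endometrium is lined by luminal epithelium that folds down into glands, and both layers feed the early conceptus with secreted proteins, ions and nutrients under the control of ovarian estrogen and progesterone. JPH4 encodes a junctophilin, one of the proteins that hold the endoplasmic reticulum close to the cell membrane and so bring calcium stores beside membrane channels; it is best known from neurons. JAKMIP1 encodes a protein that binds Janus kinases, the GABA-B receptor and microtubules, COL23A1 a collagen that spans the cell membrane, RFX6 a transcription factor known for the endocrine cells of the pancreas and gut, and EDNRA the endothelin A receptor.

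JPH4 was spread widely over the EL library. It was found in 6370 kept EL barcodes with at least 1 UMI and in 4520 with at least 2. Of the latter, 3752 also had a UMI of JAKMIP1, COL23A1 or RFX6, and 3587 of these had at most 1 UMI of CYP26A1. From that pool, 797 barcodes held more UMIs of PON3 and CLDN10 and 379 held at least as many of OPTC, CCK and TMEM100. The JPH4 cells had a median of 5 JPH4 UMIs, with a middle range of 3 to 7 and a highest value of 35. RFX6 had a UMI in 78.3% of the cells, JAKMIP1 in 55.5%, COL23A1 in 50.9% and EDNRA in 38.2%, while CLDN10, a claudin of the tight junction that the rule set against them, had one in 77.2%. The 389 cells just inside the JPH4 threshold, with 2 UMIs, had a median of 1553 UMIs and a JPH4 level of 1008 CPM (counts-per-million, the UMIs of a gene summed over a group of cells, relative to all UMIs of that group). The 417 cells just outside it, which met the rest of the rule with 1 JPH4 UMI, had a median of 1099 UMIs and a JPH4 level of 559 CPM, with EDNRA at 115 CPM against 176 just inside and MGP at 1005 against 1349.

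The JPH4 cells were set beside 4 other groups of the same library, each taken by its own genes: 1131 cells led by PON3 and CLDN10 (PON3 cells), 786 led by OPTC, CCK and TMEM100 (OPTC cells), 1686 with at least 2 UMIs of CYP26A1 (CYP26A1 cells) and 1314 ciliated cells. In the EIS library only 1 of 8669 kept barcodes (0.0115%) met the rule, so the 1703 EIS barcodes with at least 2 UMIs of KRT18 and outside the other gates (EIS epithelial cells, median 3159 UMIs) served there. JPH4 stood at 1509 CPM in the JPH4 cells, 631 in the PON3 cells, 556 in the OPTC cells, 103 in the CYP26A1 cells, 46.8 in the ciliated cells and 1.58 in the EIS epithelial cells. Among these groups the PON3 and OPTC cells thus lay between the JPH4 cells and the CYP26A1 and ciliated cells, and the EIS cells near 0. As a ratio, the JPH4 cells were 2.39-fold higher (2.31 to 2.48) than the PON3 cells and 2.71-fold higher (2.59 to 2.84) than the OPTC cells, a gap that the rule itself sets. The cells hold 57.5% of all JPH4 UMIs of the kept EL barcodes. JPH4 also stood at 781 CPM in 1450 further EL epithelial barcodes of low depth (median 1063.5 UMIs) and at 654 CPM in the remaining 1633 barcodes (median 718 UMIs). Both levels were above those of the PON3 and OPTC cells, so JPH4 was also found outside the selection, in barcodes of lower depth.

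The other genes of the rule did not all follow the order of JPH4. JAKMIP1 was at 251 CPM in the JPH4 cells, 141 in the PON3 cells, 39.8 in the OPTC cells, 13.5 in the CYP26A1 cells and 7.46 in the ciliated cells. It split the OPTC cells from the other 2 groups more than JPH4 did, being 6.31-fold higher (5.34 to 7.5) in the JPH4 cells than there and 1.78-fold higher (1.64 to 1.92) than in the PON3 cells. COL23A1 ran in the same order at 214, 126, 50.6, 14.2 and 5.24 CPM. RFX6 was at 439 CPM in the JPH4 cells, 281 in the PON3 cells, 186 in the OPTC cells, 35.9 in the CYP26A1 cells and 55.1 in the ciliated cells. EDNRA, which the rule did not use but which was proposed as a marker with these values known, was at 153, 112, 53.2, 9.21 and 5.08 CPM in the same groups. EDNRA was 1.37-fold higher (1.25 to 1.5) in the JPH4 cells than in the PON3 cells and 2.87-fold higher (2.47 to 3.34) than in the OPTC cells. CCK, a peptide hormone, was at 52.1 CPM in the JPH4 cells and 1479 in the OPTC cells, and CLDN10 was at 617 CPM against 1212 in the PON3 cells. In EIS epithelial cells JAKMIP1 was at 0.466 CPM and EDNRA at 1.96, while COL23A1 at 19.8 and RFX6 at 33.8 CPM were better detected.

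**Figure D1:**
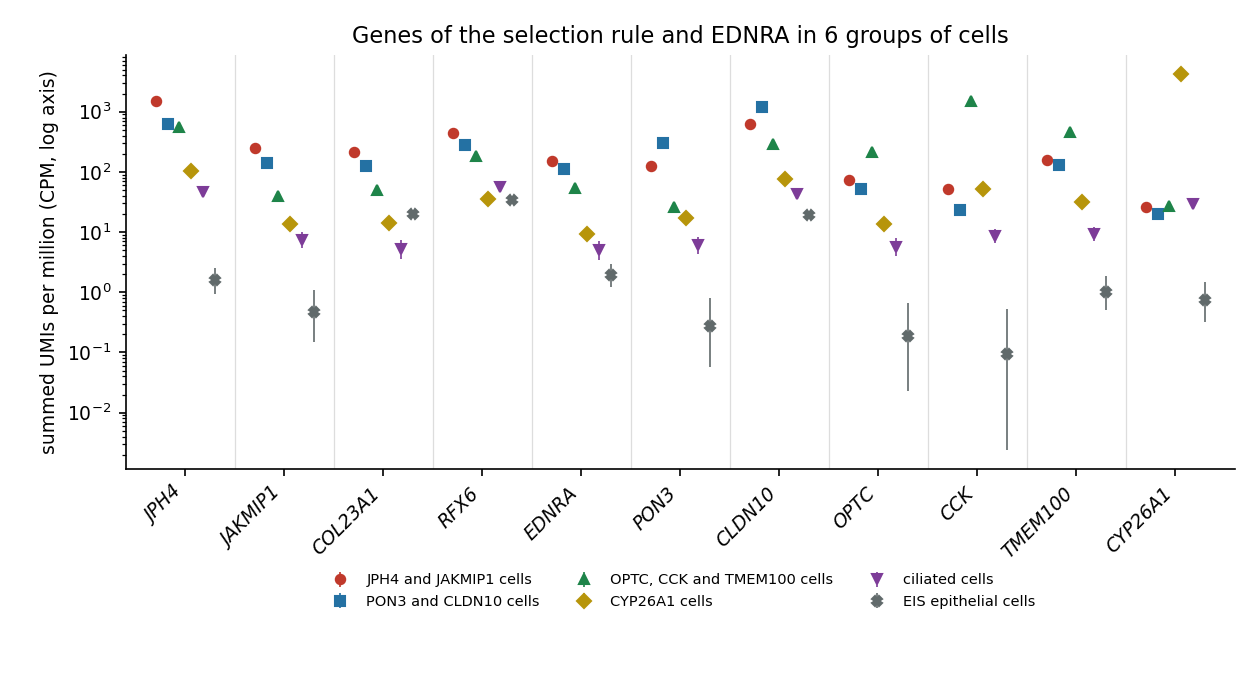
Summed CPM (log axis) of the 10 genes of the selection rule and of EDNRA in 6 groups of cells, with bars for 95% Poisson intervals (counting error only). JPH4 is at 1509 CPM in the JPH4 and JAKMIP1 cells, 631 in the PON3 and CLDN10 cells and 1.58 in the EIS epithelial cells; CYP26A1 is at 4194 in the cells named for it and at 29.0 or less in the other groups plotted.

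Depth differed among the groups and bears on any share of cells. The JPH4 cells had a median of 2783 UMIs and 1635 genes, against median UMI counts of 4651 in the PON3 cells, 3887.5 in the OPTC cells, 3414 in the CYP26A1 cells, 5053 in the ciliated cells and 1358 in 277 EL lymphocytes. Each cell was therefore thinned to 2000 UMIs, which left out 711 JPH4 cells, 117 PON3 cells, 186 OPTC cells, 642 CYP26A1 cells, 264 ciliated cells and 239 lymphocytes as too shallow. JAKMIP1 then had a UMI in 41.0% of JPH4 cells, 26.0% of PON3 cells, 7.17% of OPTC cells and 7.89% of lymphocytes (unthinned 55.5%, 48.0%, 15.4% and 8.30%). Thinned, its share in the OPTC cells was near that in the lymphocytes, a cell type JAKMIP1 is also known from, with 26 UMIs there in all. Only 38 lymphocytes were deep enough and the unthinned share was higher in the OPTC cells, so the 2 groups cannot be ranked. The lymphocyte group also held macrophage markers at a summed 3214 CPM. RFX6 had a UMI in 57.0%, 41.7%, 29.7% and 2.63% of the same groups (unthinned 78.3%, 71.0%, 48.6% and 3.61%). EDNRA had one in 27.3%, 22.8%, 12.7% and 2.63% (unthinned 38.2%, 40.9%, 19.6% and 1.08%). EDNRA in CYP26A1 cells, at 2.68% thinned, and in ciliated cells, at 0.667%, was near or below the share of the lymphocytes, of which few were deep enough. Over both libraries there were 43302286 UMIs in 10936 EL barcodes and 36069473 in 8848 EIS barcodes, and 27 barcode sequences occurred in both.

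The epithelial label was checked against marker lists. Of 12 epithelial markers 6 could be matched to a gene symbol in the files, and all 6 were detected, with a summed level of 1231 CPM in the JPH4 cells against 74.1 in the lymphocytes. They included CLDN7 at 533 CPM, the keratin KRT18 at 487 and the splicing regulator ESRP1 at 95.4; EPCAM and CDH1 carried no symbol and were not read. The markers of endocrine cells, summed to 0.650 CPM: of 4 matched genes NEUROD1, PAX6 and ISL1 were at 0 and only CHGA was detected. All 3 matched lymphatic endothelial markers and the mesothelial WT1 were at 0, as were 4 of 8 trophoblast markers (TFAP2C, ELF5, HAND1 and CYP11A1). The vascular gene VWF, the smooth muscle genes ACTA2, DES and RGS5 and the macrophage gene MRC1 were also at 0, while other genes of their lists were detected. Several of these zeros are not particular to the JPH4 cells: VWF and RGS5 were at 0 in every EL group, and MRC1 and WT1 in every EL epithelial group. Where a gene was at 0 in the JPH4 cells, 3 UMIs of the group would amount to 0.325 CPM. T and NK cell markers summed to 26.2 CPM, vascular markers to 14.6, macrophage markers to 23.4, B and plasma cell markers to 39.8 and smooth muscle markers to 4.11. The mast cell list summed to 377 CPM through SLC18A2, GATA2 and HDC, of which SLC18A2 was at 192 CPM. The stromal list summed to 269 CPM, against 437 in the PON3 cells, 30.7 in the OPTC cells and 32.9 in the CYP26A1 cells, with DCN making up most of it and HAND2 at 0. Ciliated markers summed to 682 CPM in the JPH4 cells, 571 in the PON3 cells, 723 in the OPTC cells and 6982 in the ciliated cells, with none of the 6 matched genes at 0. The part of these other cell types in the results was not tested beyond the values given with the sub-groups.

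Few genes set the JPH4 cells apart from both the PON3 and the OPTC cells. A gene was compared where it had at least 20 UMIs and 20 CPM in 1 of the groups, and it was counted past 2-fold on CPM. Of 7644 genes compared, 39 (0.51%) were at least 2-fold higher in the JPH4 cells than in both the PON3 and the OPTC cells, and 1 (0.0131%) was at least 2-fold lower than in both. Of the 39, 35 carried no gene symbol, and those with one were JPH4 itself, ARMC7, AP1G2 and ZFP14. The 1 lower gene was PENK, the enkephalin precursor, with 2 UMIs in the JPH4 cells, 3 in the PON3 cells and 38.5 CPM in the OPTC cells, so its place below the PON3 cells rests on too few UMIs to be told from counting error. Against the PON3 cells alone 102 of 7437 genes (1.37%) were at least 2-fold higher and 28 (0.376%) lower, and against the OPTC cells 307 of 7523 (4.08%) were higher and 179 (2.38%) lower. CPM depends on what else a group expresses: the median gene was 0.13 higher on the log2 scale in the JPH4 cells than in either group. With TMM factors, which set the bulk of genes level, 11 of the 39 genes remained higher than both groups, and 14 did when scaled to the median gene. The other counts became with TMM factors 40 higher and 39 lower against the PON3 cells and 202 higher and 246 lower against the OPTC cells.

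**Figure D2:**
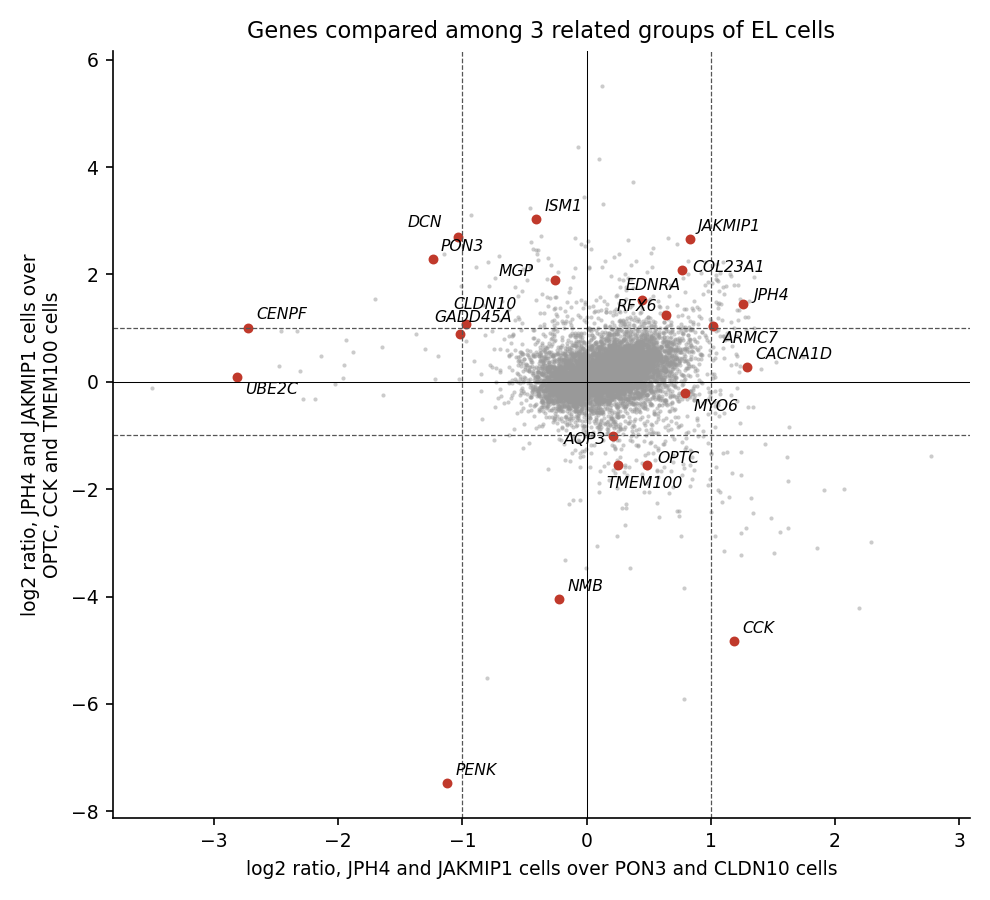
Each point is a gene detected in all 3 groups, placed by its log2 CPM ratio of JPH4 and JAKMIP1 cells over PON3 and CLDN10 cells (horizontal) and over OPTC, CCK and TMEM100 cells (vertical); dashed lines mark 2-fold, and red points are genes of the rule and others named in the text. Most genes lie within 2-fold of both groups, the upper right corner holds the 39 higher genes, JPH4 and ARMC7 among them, and PENK lies alone in the lower left corner.

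Of the genes with a symbol and at least 50 CPM, some of those highest over both related groups are described next; no gene list stands behind the choice. ARMC7 was at 69.6 CPM in the JPH4 cells, 34.5 in the PON3 cells and 33.9 in the OPTC cells, 2.02-fold higher (1.73 to 2.36) and 2.05-fold higher (1.70 to 2.51) respectively. TAF1, a subunit of the general transcription factor TFIID, was at 127, 65.7 and 69.4 CPM. SNRNP70, the U1 splicing protein, was at 276, 152 and 159 CPM. TAF1 was 1.93-fold higher (1.73 to 2.17) than in the PON3 cells and SNRNP70 1.82-fold higher (1.69 to 1.96), so these differences were small. Their intervals cover counting error only and take no account of the choice of these genes as the highest among those compared. MLLT6, a partner of a histone methyltransferase, was at 132 CPM against 76.2 and 65.1, and the tyrosine kinase ABL2 at 357 against 212 and 182. CHD7, a chromatin remodeller, and NRF1, a factor of mitochondrial gene transcription, were 1.68-fold higher (1.46 to 1.95) and 1.66-fold higher (1.41 to 1.97) than in the PON3 cells. SLC23A1, a vitamin C carrier, was at 188 CPM against 112 and 92.5. Depth moved with this pattern: the JPH4 cells were the shallower group, and within them SNRNP70 was 2.31-fold higher (2.13 to 2.50) in the shallower of 2 nearly equal parts than in the deeper and MLLT6 2.26-fold higher (2.01 to 2.53). Its part in the difference was not tested beyond thinning each cell to 2000 UMIs, which gave 35 genes higher than both groups, 22 of them among the 39.

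The genes lowest against both groups also differed little. CDK2AP1 was at 35.3 CPM against 53.1 in the PON3 cells and 65.1 in the OPTC cells. ACAT2, a thiolase of sterol synthesis, was 1.47-fold lower (1.31 to 1.65) than in the PON3 cells and 1.5-fold lower (1.31 to 1.70) than in the OPTC cells. IDI1, also of that pathway, stood at 177, 252 and 307 CPM. The respiratory carrier CYCS was at 67.0, 96.9 and 97.3 CPM, and the succinate dehydrogenase subunit SDHB at 109, 135 and 137. The ribosomal protein genes showed the same direction: all 62 measured were below their level in the PON3 cells, with a median ratio of 0.844, and 49 of 62 were below the OPTC cells. They took 12.4% of the UMIs of the JPH4 cells, 14.9% of those of the PON3 cells and 13.9% of those of the OPTC cells. None of the 42 nuclear oxidative phosphorylation genes passed 2-fold against either group, and their median log2 ratios were -0.16 and -0.21. Of 22 lipid and sterol genes, 1 was at least 2-fold lower and none higher than in the PON3 cells, beside 0.376% and 1.37% of all genes. Against the OPTC cells 3 were lower and 2 higher, beside 2.38% and 4.08%.

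Of 21 cell cycle and cell death genes compared with the PON3 cells, 6 were at least 2-fold lower in the JPH4 cells and none higher, beside 0.376% lower and 1.37% higher of all genes, and 15 did not pass 2-fold. CENPF, a kinetochore protein, was at 13.0 CPM against 86.0 in the PON3 cells and 6.45 in the OPTC cells. UBE2C, which drives exit from mitosis, was at 7.15, 50.2 and 6.72 CPM, and cyclin B1 (CCNB1) at 6.93, 38.6 and 5.65. These summed levels can come from few cells: a cluster of 185 EL cells led by genes of mitosis held 48 PON3 cells, 19 JPH4 cells and 10 OPTC cells. Summed markers of dividing cells were at 68.8 CPM in the JPH4 cells, 256 in the PON3 cells and 52.7 in the OPTC cells. GADD45A, a growth arrest and stress gene, was at 389 CPM in the JPH4 cells and 791 in the PON3 cells, 2.03-fold lower (1.95 to 2.12), and at 210.3 in the OPTC cells. FOS was at 3382 CPM in the JPH4 cells, 5276 in the PON3 cells and 2252 in the OPTC cells. None of the 21 immediate early genes compared passed 2-fold against the PON3 cells, but their median log2 ratio was -0.33 where that of all genes was 0.13. Against the OPTC cells it was 0.47. In the other direction the calcium channel gene CACNA1D was at 74.1 CPM against 30.2 in the PON3 cells, 2.45-fold higher (2.08 to 2.89), with 61.3 CPM in the OPTC cells.

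Against the OPTC cells many matrix genes were higher, beside 4.08% higher and 2.38% lower of all genes. Of 13 genes of the list of collagens, laminins and matrix that were compared, 9 were at least 2-fold higher in the JPH4 cells and 1, OPTC of the rule, was lower; COL23A1 of the rule is among the 9. Their median log2 ratio was 1.91 beside 0.13 for all genes, and the stromal marker list, which shares DCN and the fibrillar collagens with it, moved the same way. DCN, the small proteoglycan decorin, was at 163 CPM in the JPH4 cells, 334 in the PON3 cells and 25.3 in the OPTC cells. ISM1, a secreted protein, was at 103, 136 and 12.6 CPM, and MGP, the matrix Gla protein that hinders calcification, at 1566, 1867 and 421. These 3 genes were shared by the JPH4 and PON3 cells and low in the OPTC cells, and DCN was lower in the JPH4 than in the PON3 cells. With thinned cells, DCN had a UMI in 15.6% of JPH4 cells, 29.7% of PON3 cells, 2.17% of OPTC cells and 0% of lymphocytes (unthinned 19.8%, 39.3%, 6.49% and 1.08%). The basement membrane collagen COL4A5 was at 98.2 CPM against 26.1 in the OPTC cells, 3.76-fold higher (3.05 to 4.69). The fibrillar collagens COL1A1, COL1A2 and COL3A1 also counted as higher, at 28.8, 36.9 and 39.0 CPM, but outside a sub-group of 20 cells with fibroblast markers they were at 1.86, 1.75 and 4.05 CPM. Without that sub-group and a ciliary one, the list read 6 higher and 1 lower of 10. Of 13 genes of steroid receptors and cofactors, 2 were at least 2-fold higher and 2 lower than in the OPTC cells, beside 4.08% and 2.38% of all genes. Their median log2 ratio was 0.07. The lower genes were GPER1, a membrane estrogen receptor, at 20.4 against 64.3 CPM and the estrogen sulfotransferase SULT1E1 at 0.541 (5 UMIs) against 32.5 CPM. The higher genes HSD11B2, which inactivates cortisol, and IHH, the hedgehog ligand that relays progesterone signals to the stroma, were 2.64-fold higher (2.29 to 3.06) and 2.43-fold higher (2.16 to 2.75) than in the OPTC cells.

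Of 9 solute carriers and pumps compared with the OPTC cells, 3 were at least 2-fold lower and 1 higher, and of 8 monoamine, peptide and granule genes 4 were lower and 1 higher, beside 2.38% lower and 4.08% higher of all genes. AQP3, a water and glycerol channel, was at 2281 CPM in the JPH4 cells, 1965 in the PON3 cells and 4584 in the OPTC cells. NMB, the peptide neuromedin B, was at 73.4, 85.7 and 1215 CPM. S100A10, an annexin partner of the S100 family, was at 144, 123 and 438 CPM. In each the JPH4 and PON3 cells were close and the OPTC cells apart. The zinc exporter SLC30A2 was 2.94-fold lower (2.69 to 3.21) than in the OPTC cells, the sterol enzymes FDPS and MSMO1 2.77-fold lower (2.46 to 3.11) and 2.74-fold lower (2.56 to 2.93), and the actin binders TPM1 and RDX, in a list with 2 of 21 genes higher and 2 lower, 2.27-fold lower (2.15 to 2.39) and 2.25-fold lower (2.03 to 2.49).

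The distance to the CYP26A1 and ciliated cells was far greater. Against the CYP26A1 cells 2336 of 7806 genes (29.9%) were at least 2-fold higher in the JPH4 cells and 751 (9.62%) lower, which became 949 higher and 1692 lower with TMM factors. With the mean of each cell's CPM, which gives shallow and deep cells the same weight, 1545 were higher and 734 lower. Against the ciliated cells 1446 of 8220 (17.6%) were higher and 1427 (17.4%) lower, or 1245 and 1578 with TMM factors. Against all other kept EL cells together 605 of 7869 (7.69%) were higher and 659 (8.37%) lower. The median gene was 0.51 higher than in the CYP26A1 cells on the log2 scale, 0.09 higher than in the ciliated cells and 0.17 higher than in all other EL cells.

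**Figure D3:**
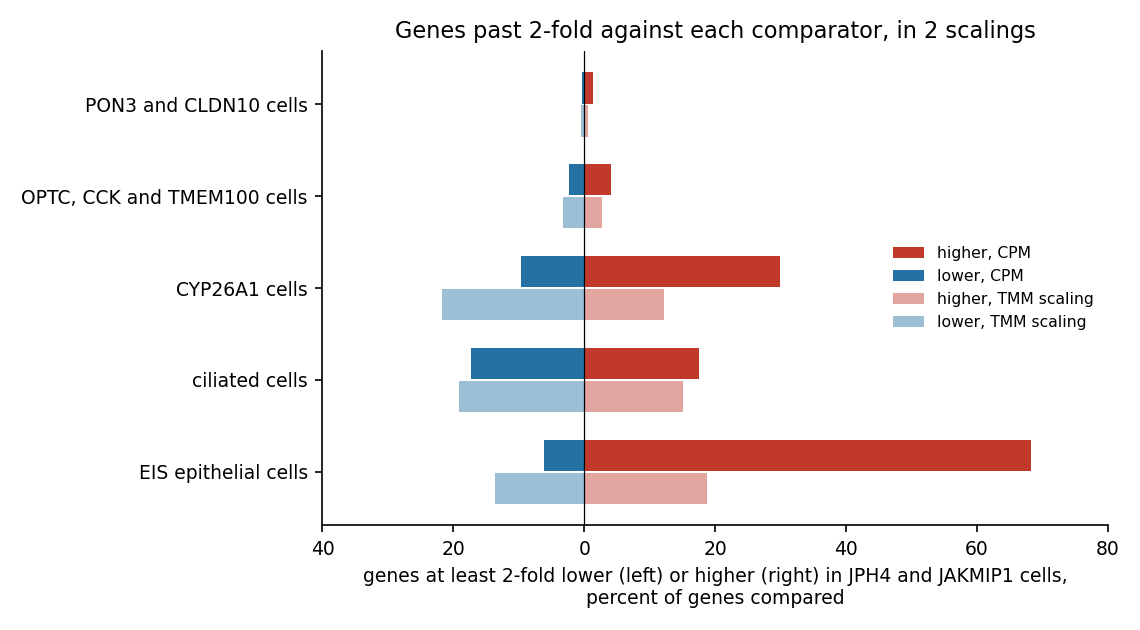
Percent of compared genes at least 2-fold higher (right) or lower (left) in the JPH4 and JAKMIP1 cells against each of 5 groups, on CPM and with TMM factors. The bars are short for the PON3 and OPTC cells (1.37% and 4.08% higher on CPM) and long for the EIS epithelial cells, where 68.2% were higher on CPM and the split was much more even with TMM factors.

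Among transcription factors SPDEF, an ETS factor of secretory epithelia, was at 1215 CPM in the JPH4 cells, 951 in the PON3 cells, 994 in the OPTC cells, 120.3 in the CYP26A1 cells and 62.1 in the ciliated cells. It was 10.1-fold higher (9.58 to 10.6) than in the CYP26A1 cells, and thinned shares of 88.6% against 19.0% and 7.14% had 7.89% of lymphocytes beside them (unthinned 93.6%, 37.4%, 18.6% and 8.30%). LEF1, the transcription factor at the end of the WNT pathway, was at 331 CPM against 38.2 in the CYP26A1 and 104 in the ciliated cells. The homeobox genes MSX1 and DLX5 were 2.52-fold higher (2.43 to 2.61) and 3.56-fold higher (3.42 to 3.70) than in the CYP26A1 cells. FOXA2, a factor known for uterine glands, was at 235 CPM in the JPH4 cells, 286 in the PON3 cells, 135 in the OPTC cells, 36.8 in the CYP26A1 cells and 155 in the ciliated cells. It was lowest in the CYP26A1 cells and stood in the ciliated cells between the OPTC and the JPH4 cells. Of 7 HOX genes compared, 6 were at least 2-fold higher than in the CYP26A1 cells and 3 than in the ciliated cells, beside 29.9% and 17.6% of all genes, with HOXA2 at 54.7, 7.41 and 20.2 CPM. The median HOX log2 ratios were 1.5 and 0.66 beside 0.51 and 0.09 for all genes. Within the RFX family, RFX6 and RFX5 were higher in the JPH4 than in the ciliated cells, with RFX5 at 32.3 against 10.2 CPM. RFX2 and RFX3, factors of ciliogenesis, were lower, at 18.2 and 30.2 CPM against 139.5 and 129 there. EHF and KLF5 were lower than in the CYP26A1 cells, with EHF at 14.7 CPM against 68.0.

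The receptors for ovarian steroids were present in the JPH4 cells. The estrogen receptor gene ESR1 was at 567 CPM in the JPH4 cells, 511 in the PON3 cells, 298 in the OPTC cells, 120.1 in the CYP26A1 cells and 455 in the ciliated cells. ESR1 was 4.72-fold higher (4.46 to 4.99) than in the CYP26A1 cells but only 1.25-fold higher (1.19 to 1.30) than in the ciliated cells. The progesterone receptor gene PGR was at 78.7, 71.0, 54.1, 22.4 and 34.4 CPM in the same order. PGR was 3.52-fold higher (3.07 to 4.04) than in the CYP26A1 cells and 1.11-fold higher (0.984 to 1.25) than in the PON3 cells, where the interval includes 1. HSD11B2 was at 155 CPM against 43.0 in the CYP26A1 cells and 8.89 in the ciliated cells, and IHH at 206 against 22.8 and 41.1. Of 12 genes of steroid receptors and cofactors compared, 6 were at least 2-fold higher and 1 lower than in the CYP26A1 cells, beside 29.9% and 9.62% of all genes. Against the ciliated cells 7 were higher and 1 lower, beside 17.6% and 17.4%. The lower gene against the CYP26A1 cells was the membrane estrogen receptor GPER1, at 20.4 CPM against 224. In the endothelin system EDNRA was high, EDNRB had 1 UMI, and the ligand EDN1 was at 4.55 CPM in the JPH4 cells and 52.9 in the CYP26A1 cells. MME, a membrane peptidase that degrades endothelin and other peptides, was at 485 CPM against 56.3 and 30.6 in the CYP26A1 and ciliated cells, but at 607 in the OPTC cells.

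**Figure D4:**
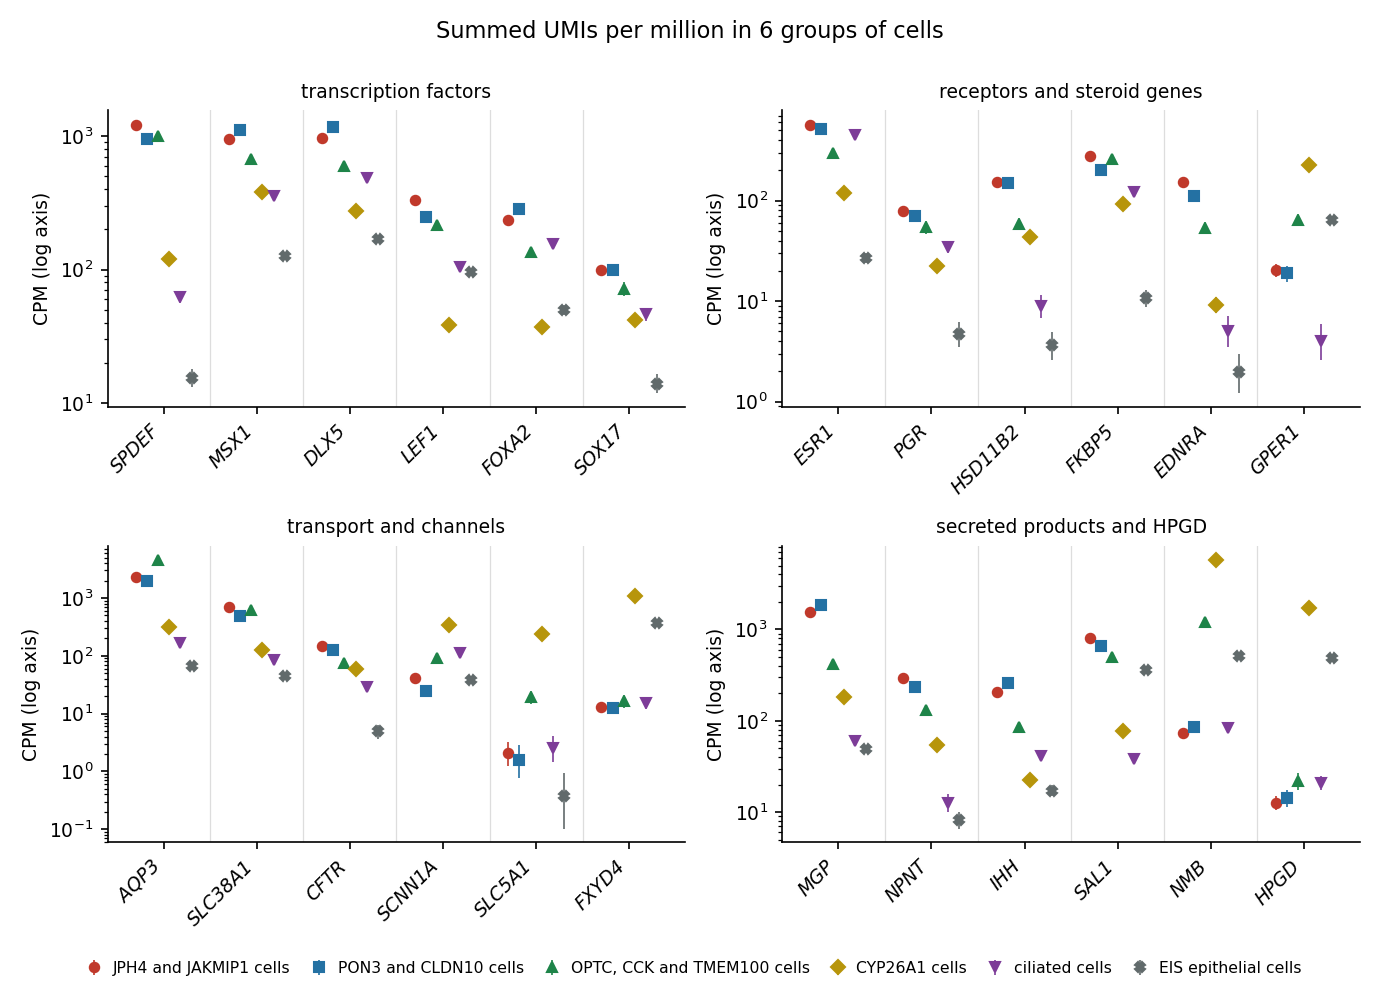
Summed CPM (log axes) of 24 genes grouped by role in 6 groups of cells, with bars for 95% Poisson intervals (counting error only). SPDEF is at 1215 CPM in the JPH4 and JAKMIP1 cells and 15.5 in the EIS epithelial cells, NMB and HPGD are highest in the CYP26A1 cells, and the JPH4 and PON3 cells lie close together in most panels.

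Of 8 monoamine, peptide and granule genes compared, 2 were at least 2-fold higher and 4 lower than in the CYP26A1 cells, beside 29.9% and 9.62% of all genes. Against the ciliated cells 3 were higher and 2 lower, beside 17.6% and 17.4%. The share higher than in the CYP26A1 cells and the share lower than in the ciliated cells were thus near those of all genes. SLC18A2, the vesicular monoamine carrier, was at 192 CPM in the JPH4 cells, 154 in the PON3 cells, 100.0 in the OPTC cells, 16.0 in the CYP26A1 cells and 9.84 in the ciliated cells. The enzyme for histamine, HDC, ran the other way at 28.2 CPM in the JPH4 cells and 728 in the CYP26A1 cells. BDNF, the brain-derived neurotrophic factor, was at 74.4, 73.5, 28.2, 7.26 and 2.70 CPM. PTN, the growth factor pleiotrophin, was at 439 CPM against 42.3 and 34.1 in the CYP26A1 and ciliated cells and 412 in the PON3 cells. SLC18A2, BDNF and PTN were all less than 2-fold apart between the JPH4 and PON3 cells. LYPD1, CNTN4, ANO4 and RASGRP3 were 10.9-fold higher (9.61 to 12.5), 10.6-fold higher (9.14 to 12.4), 12.4-fold higher (9.41 to 16.7) and 11.8-fold higher (9.69 to 14.6) than in the CYP26A1 cells. None of these 4 set the JPH4 cells apart from the PON3 cells by 2-fold, at 214 against 282 CPM for LYPD1, 157 against 124 for CNTN4, 52.1 against 41.3 for ANO4 and 96.6 against 97.5 for RASGRP3. SAL1, a lipocalin of the pig, was at 808 CPM in the JPH4 cells, 76.5 in the CYP26A1 cells and 38.1 in the ciliated cells. GABBR1, the GABA-B receptor subunit that JAKMIP1 is known to bind, was at 96.4, 61.6, 53.8, 14.1 and 21.0 CPM across the 5 EL groups, 1.56-fold higher (1.39 to 1.77) than in the PON3 cells. JAK1, the Janus kinase of the list, was at 200.1 CPM in the JPH4 cells, 88.1 in the CYP26A1 cells and 493 in the ciliated cells.

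Of 8 ion channel genes compared with the CYP26A1 cells, 5 were at least 2-fold higher and 2 lower, and of 13 solute carriers and pumps 4 were higher and 6 lower, beside 29.9% higher and 9.62% lower of all genes. The share of carriers that were higher was thus near that of all genes. AQP3 was 7.37-fold higher (7.13 to 7.63) in the JPH4 cells, and the amino acid carrier SLC38A1 was at 699.5 CPM against 126. The chloride channel CFTR was at 150.4 CPM against 59.9, 2.51-fold higher (2.30 to 2.74). SCNN1A, a subunit of the epithelial sodium channel, was lower, at 42.0 CPM against 345, and SLC5A1, the sodium-glucose carrier, at 2.06 against 234. FXYD4, which modulates the sodium pump, was 82.2-fold lower (68.8 to 99). In calcium handling the pump ATP2B4 was at 45.6 CPM against 389 in the CYP26A1 and 311 in the ciliated cells, and the reticulum pump ATP2A2 at 163 against 50.9 and 223. Of the 14 genes of junctophilins and calcium release compared with the CYP26A1 cells, 5 including JPH4 of the rule were higher, a share near the 29.9% of all genes, and 4 were lower.

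Prostaglandin enzymes, peptides and several secreted products were lower in the JPH4 cells than in the CYP26A1 cells. HPGD, which breaks prostaglandins down, was at 12.7 CPM against 1712, and PTGES, a prostaglandin E synthase, at 4.01 against 402. Of 6 prostaglandin genes compared, 4 were lower and 1 higher, beside 9.62% lower and 29.9% higher of all genes. NMB was at 73.4 CPM against 5801, 79.0-fold lower (73.3 to 85.4), and UPTI, a protease inhibitor of the pig uterus, at 52.7 against 6237. WNT7A, a ligand known from the luminal epithelium, was at 1.73 CPM in the JPH4 cells, 1.89 in the PON3 cells, 1.88 in the OPTC cells, 201 in the CYP26A1 cells and 2.06 in the ciliated cells. Of the EL groups the CYP26A1 cells alone held it above 3 CPM. Of 42 nuclear oxidative phosphorylation genes 14 were at least 2-fold lower than in the CYP26A1 cells and none higher, with a median log2 ratio of -0.79. Of 25 lipid and sterol genes 11 were lower and 4 higher, again beside 9.62% and 29.9% of all genes. Matrix genes ran the other way beside the same shares, with 11 of 12 higher and none lower, or 8 of 9 without sub-groups 5 and 6. The galectin LGALS3 was lower than in both, at 247 CPM against 2571 in the CYP26A1 and 1341 in the ciliated cells. So were the Notch ligand JAG1 at 10.9 against 71.7 and 90.5, and the chaperone CRYAB at 188 against 1188 and 1398. Against the ciliated cells 11 of 20 immediate early genes were at least 2-fold lower and none higher, beside 17.4% and 17.6% of all genes. KLF6 was at 237 CPM against 1072 and the chemokine CXCL2 at 196 against 1882.

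The comparison with the EIS epithelial cells joins a difference of sow and stage to one of cell type. The 6 matched epithelial markers summed to 1125 CPM in the EIS cells and 1231 in the JPH4 cells. Stromal markers summed to 2362 CPM in the EIS cells, above their epithelial sum, against 269 in the JPH4 cells. Trophoblast markers summed to 87.6 against 1.41, smooth muscle markers to 202 against 4.11 and macrophage markers to 251 against 23.4. The part of these other cell types in the result was not tested. Of 7711 genes compared, 5262 (68.2%) were at least 2-fold higher in the JPH4 cells and 469 (6.08%) lower. The median gene was 1.42 higher on the log2 scale, and with TMM factors 1445 were higher and 1053 lower. In the EIS cells a few secreted proteins took much of the RNA: the protease inhibitor SLPI was at 282469 CPM there, the acid phosphatase ACP5 (uteroferrin) at 72766, UABP-2 at 66632 and TIMP2 at 28021. The JPH4 cells had SLPI at 121 CPM, ACP5 at 2.60, UABP-2 at 0.541 (5 UMIs) and TIMP2 at 54.1. RBP4, a retinol carrier, was at 334 CPM in the JPH4 cells and 8526 in the EIS cells, and SPP1 (osteopontin) had 3 UMIs against 11074 CPM. Of 19 uterine secretion genes 14 were at least 2-fold lower in the JPH4 cells and 3 higher, and of 8 prostaglandin genes 7 were lower and 1 higher. PLET1, SULT2A1, AQP8, DPPA5, VSTM2L, MS4A8B and TNNI2 were at 0 in the JPH4 cells and between 60.3 and 291 CPM in the EIS cells.

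The steroid receptor genes ESR1 and PGR and the factor SPDEF were higher in the JPH4 cells by more than the shift of the median gene. ESR1 was at 567 CPM against 27.1 in the EIS cells, PGR at 78.7 against 4.66 and SPDEF at 1215 against 15.5. ALDH1A3, which makes retinoic acid, was at 633 CPM against 3.35, and SLC18A2 at 192 against 0.466. SCD5 was 236-fold higher (128 to 492). BDNF and the retinoid-binding RLBP1 had 0 UMIs in the EIS cells, and set against 3 UMIs there they were at least 266-fold and 264-fold higher in the JPH4 cells. Of 12 WNT pathway genes 11 were higher and none lower, with a median log2 ratio of 2.00; of 7 HOX genes all were higher, with a median of 2.09; and of 14 steroid genes 10 were higher and 3 lower, with a median of 2.53. The share of steroid genes that were higher was near the 68.2% of all genes. Interferon and antigen presentation genes were higher in 11 of 15 on CPM, but their median of 1.32 lay below that of all genes. The endothelin receptors ran in opposite directions, with EDNRA at 153 against 1.96 CPM and EDNRB at 0.108 (1 UMI) against 109. The ribosomal protein genes, at 12.4% of UMIs against 4.03%, were all 62 higher in the JPH4 cells, with a median ratio of 3.15.

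The JPH4 cells were not uniform. Clustered without the genes of the rule, they formed 7 sub-groups, which are described by their leading genes and not tested. Sub-group 1, the largest with 981 cells (39.4%) and a median of 2141 UMIs, was led by CD200, ISM1 and FGD6 and held the highest levels of the defining genes, with JPH4 at 2185 CPM, EDNRA at 263 and MGP at 2277. Sub-group 2, with 585 cells and a median of 4830 UMIs, was led by the early response and heat shock genes KLF4, GADD45A, RASD1 and DNAJB1, with FOS at 6628 CPM against 458 in sub-group 1. Sub-group 3, with 453 cells, was led by PDZK1, HK2 and CDH13 and lay toward the OPTC cells in several genes, with AQP3 at 4479 CPM, CCK at 146 and MGP at 682. Sub-group 4, with 298 cells, was led by SDS, HBM and UPTI, the last of them highest in the CYP26A1 cells among the EL groups. Its neutrophil markers summed to 44.6 CPM and its erythroid markers to 22.9, against 3.06 and 1.31 in sub-group 1. Of its cells 12.1% scored among the likely doublets, beside 9.73% of all kept EL cells. The remaining sub-groups were small. Sub-group 5, with 134 cells and a median of 9046.5 UMIs, was led by CERKL, FAM81A and MGAT4C, had ciliated markers at 4056 CPM against 115 in sub-group 1, and 73.1% of it scored as likely doublets. Sub-group 6, with 20 cells, was led by COL1A2 and had stromal markers at 10072 CPM, T and NK cell markers at 1309, macrophage markers at 579.6 and vascular markers at 289.8, and 35% of it scored as likely doublets. Sub-group 7, with 16 cells, was led by BUB1 and CENPF.

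Leaving out sub-groups 5 and 6, a choice made after these values were seen, left 64 genes higher than both related groups, all 39 among them, and 128 lower where there had been 1. Of those 128, 124 were at least 2-fold higher in ciliated cells than in the JPH4 cells, beside 17.4% of all genes compared with the ciliated cells. Cells with ciliary RNA had been left out of 1 side only, and the part of that in the 128 was not tested beyond the counts that follow. Cells with at least 3 UMIs of the ciliated markers made up 5.63% of the JPH4 cells, 7.69% of the PON3 cells and 8.78% of the OPTC cells, and leaving them out of all 3 alike gave 49 genes higher, 36 of them among the 39, and 0 lower. JPH4 itself was at 2185, 1288, 1733 and 1628 CPM in sub-groups 1 to 4 and at 650.2 CPM in sub-group 5.

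**Figure D5:**
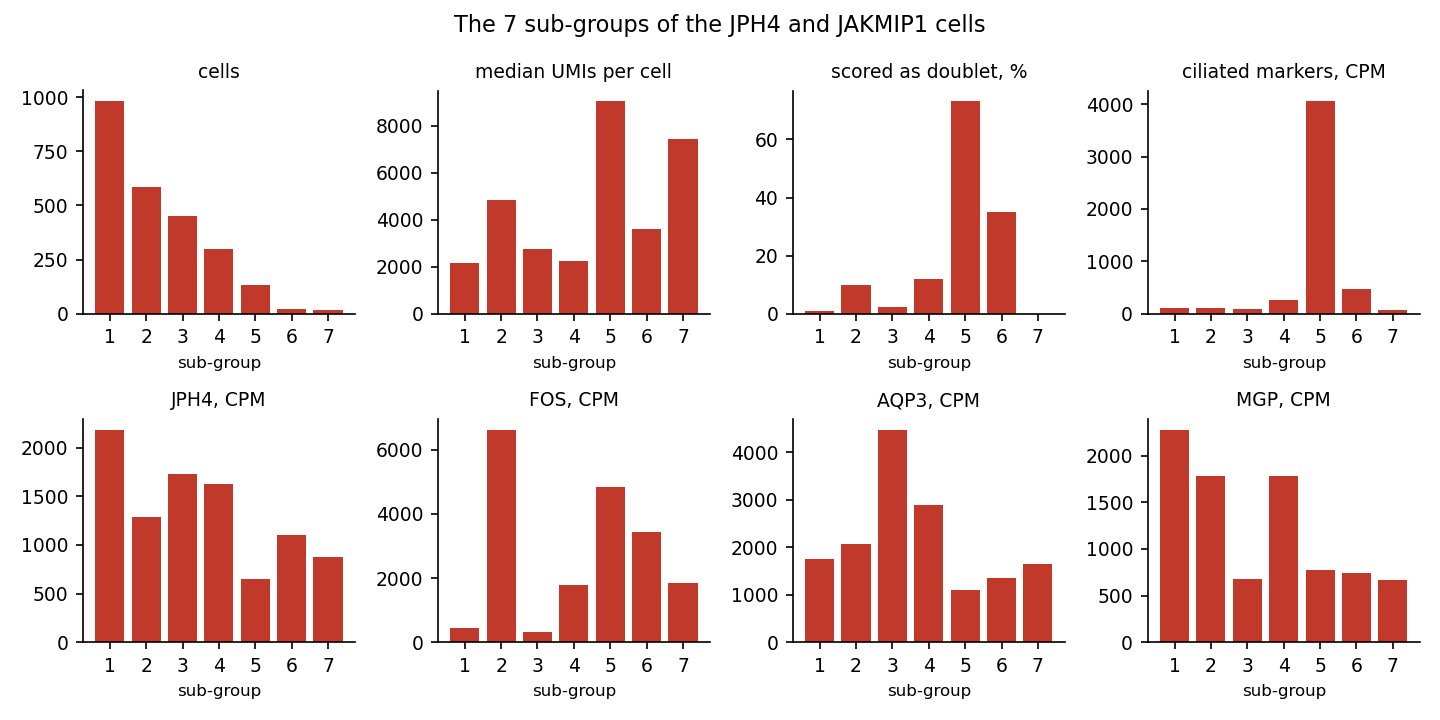
The 7 sub-groups of the JPH4 and JAKMIP1 cells by number of cells, median UMIs, percent of cells scored as doublets, summed ciliated markers and the CPM of JPH4, FOS, AQP3 and MGP. FOS separates sub-group 2 from 1 and 3, AQP3 is highest in sub-group 3, and sub-group 5 has both the highest depth and the most ciliated UMIs.

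Depth and the early response genes also moved together within the cells. In the shallower of 2 parts of about equal size (1243 cells, median 1873 UMIs) JPH4 was at 2334 CPM against 1249.7 in the deeper (1244 cells, median 4495 UMIs), 1.87-fold higher (1.80 to 1.93). RFX6 was at 757 against 339 CPM and EDNRA at 238 against 126, while FOS was at 1085 against 4103 and GADD45A at 99.7 against 479.8. Of 7988 genes compared, 472 were at least 2-fold higher and 275 lower in the shallower part. A minimum of 2 JPH4 UMIs asks a higher level of a shallow cell than of a deep one, and the part of that in these differences was not tested. When all kept EL cells were clustered without use of the rule, 984 of the JPH4 cells fell in 1 cluster, of which they made up 66.1%, together with 240 PON3 cells. Another 531 shared a cluster with 559 PON3 cells, 435 one with 173 OPTC cells, and 117 one with leading ciliary genes. In none of the 3 largest of these clusters were the JPH4 cells alone, and the borders of the group are those of the rule.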

How the data were processed

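Droplet single-cell RNA libraries of endometrium from 1 EL and 1 EIS sow were read as the deposited gene-by-barcode matrices of UMI counts. The counts were made with Cell Ranger 2.1.1 per the submitters' processing notes, whereas the file headers name cellranger 6.1.0. The genome build is not given in the sources used here, and neither is the annotation. Of 26881 features 16128 carried no gene symbol (26.7% of EL and 23.0% of EIS UMIs), among them EPCAM, CDH1 and KRT8, so the epithelial gate rests on KRT18.

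Barcodes with at least 500 UMIs and 300 genes were kept, assigned to groups in a fixed order by UMIs of a few genes (PON3 cells: at least 3 of PON3 and CLDN10; OPTC cells: at least 2 of OPTC, CCK and TMEM100; ciliated cells: at least 3 of FOXJ1, PIFO, CAPS, TPPP3 and RSPH1), and their counts summed to CPM with exact 95% intervals for levels and ratios. These cover counting error only, since cells of 1 sow are not replicates, and no p-value was computed. Shares were compared after thinning cells to 2000 UMIs. Doublets were kept, and their removal (Scrublet scores, the top 0.8% per 1000 cells) was an alternative. The members and all gene lists were chosen with earlier results of these data known. Named were the genes of the rule, the 20 highest and 20 lowest against both the PON3 and OPTC cells with at least 50 CPM, up to 5 of each gene list, the 10 highest and 10 lowest against the EIS cells, and leading genes of sub-groups. Genes named against the CYP26A1 or ciliated cells, and CENPF, UBE2C, CCNB1, COL1A1, COL1A2, COL3A1, EDN1, EDNRB, FXYD4, GPER1, HDC, JAK1, MSX1, RFX2, RFX3, RFX5, KLF5, SCNN1A, SULT1E1 and TIMP2, were chosen after their values were seen. The scripts were tested on simulated data. Tools were scanpy 1.11.5, numpy 2.4.6, pandas 2.3.3, python 3.11.15, scipy 1.17.1, leidenalg 0.10.2, scikit-learn 1.9.0, matplotlib 3.10.9, and R 4.3.3 with edgeR 4.0.16 for TMM factors only.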

Additional observations from a re-analysis of the deposited data

How the results depend on the processing

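No paired analysis was possible because each condition is 1 library. The share of JPH4 cells, 23.0% of kept EL cells, was 26.9% with a minimum of 1 JPH4 UMI, 19.4% with 3, 27.4% with no condition on JAKMIP1, COL23A1 and RFX6, 28.1% with at least 1000 UMIs and 500 genes, 21.9% after thinning to 2000 UMIs and 21.9% without the ciliated and stromal sub-groups. The 39 genes higher than both PON3 and OPTC cells became 11 with TMM factors and 14 scaled to the median gene, all within the 39, and 0 at 3-fold. They became 64 without those sub-groups (all 39 among them) and 2199 of 19749 genes with no minimum beyond 1 UMI. With doublets removed they became 52, with 10% free RNA removed 53 and with the mean of each cell's CPM 50. Thinning to 2000 UMIs gave 35, and a minimum of 3 JPH4 UMIs gave 33. In 1 setting the members were replaced by 487 other cells, with at most 1 UMI of JPH4 and at least 2 of JAKMIP1, COL23A1 and RFX6. None of these cells is a member, so the setting describes other cells and does not test the members. The PON3 and OPTC cells were left as they were, so a cell could stand on both sides. With these cells 669 genes were higher than both groups, with 10 of the 39 among them. The 1 lower gene became 2 with the mean of each cell's CPM, 2 with 10% free RNA removed, 0 after thinning, 0 at 3-fold and 0 with cells of 3 ciliated UMIs removed. The count was 21 with the 487 cells low in JPH4 in place of the members, 302 with no minimum and 128 without the sub-groups. The settings on ciliated UMIs and on sub-groups were chosen after seeing the data.

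Of 685 named ratios, 328 were past 2-fold, and 325 to 328 of them kept their direction in each setting that gave all 685. Of the 328, 287 stayed past 2-fold with TMM factors, 294 scaled to the median gene, 304 with the mean of each cell's CPM and 311 after thinning. With the other cells low in JPH4 in place of the members 264 did, and 323 to 327 did in the remaining such settings. With the mean of each cell's CPM, KLF6 and KLF2 over CYP26A1 cells turned to -0.0764 and -0.0879 on the log2 scale. With the cells low in JPH4 in place of the members, JPH4 over PON3 and OPTC cells turned to -1.54 and -1.35, which that choice fixes. LGALS3 over OPTC cells turned to 0.15 in that setting, and the cause of the turns other than JPH4 was not tested. The free RNA setting gave 676 of the ratios. Depth limits genes near 3 UMIs per group.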
